A study of Homo sapiens with 4 samples.

Results

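The genes described here are 54 chromatin remodelers and histone modifiers. They were named one by one as subunits or enzymes of the ISWI, SWI/SNF, CHD and INO80 remodelers, the histone methyltransferases and demethylases, Polycomb repressive complex 2 (PRC2), the histone acetyltransferases and deacetylases, and the DNA methylation machinery. All 54 were found among the 40205 genes of the files, and all 54 were among the 14800 genes tested. Human lung cancer cells were transfected for 24 h with siRNA against circZFR, a circular RNA made from exons of ZFR (si-circZFR 1 and si-circZFR 2), or with negative control siRNA (NC 1 and NC 2), and total RNA was sequenced on the Ion Proton. The labels give the line as H1299 and the study's design text gives A549, both of them lung cancer lines, so no line is named here. Nothing in the labels says that the 2 libraries of a group came from separate cultures, so the p-values measure only the spread between these libraries, which may be technical.

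Chromatin remodelers are machines built around an ATPase that slides, evicts or exchanges nucleosomes, and their other subunits help to decide where the machine acts. Histone modifiers add or remove acetyl and methyl groups on histone tails, and DNA methyltransferases and TET enzymes set and oxidise methylation on cytosine. Many of these genes are mutated in cancer. In lung adenocarcinoma, the SWI/SNF genes SMARCA4 and ARID1A and the histone methyltransferase gene SETD2 are known examples.

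The authors deposited RPKM values (a gene's read count divided by gene length and library size). Whole numbers of reads were recovered from them, and the totals ran from 11040050 to 12816868 reads per library. Each of the 54 genes had between 125 and 3412 reads in a library, for which the counting error alone was 8.94% and 1.71%. Levels are given below as scaled RPKM, that is RPKM after scaling between libraries by trimmed means of log ratios. The log2FC is the difference between the group means of log2(scaled RPKM + 1), si-circZFR minus NC, a scale that understates the changes of low genes. The test was limma across all 14800 genes, and a gene was called at a false discovery rate (FDR) under 0.05 by Benjamini-Hochberg adjustment. Of the 14800 genes 201 were called, and 180 of these also had |log2FC| above 1. ZFR itself had 1437 and 1740 reads in the NC libraries and 284 and 267 in the si-circZFR libraries (log2FC -2.34, limma FDR = 0.0125). Reads of the circle and of linear ZFR are not separated in these values. By RT-PCR, the paper reports that its siRNA lowered the circle without a detectable effect on ZFR expression. Whether the differences below came with loss of the circle or of linear ZFR cannot be told apart here. Of the marker genes examined, KRT8 and KRT18 (epithelial keratins), VIM (mesenchymal) and the metabolic genes AKR1B10 and AKR1C1 lay between 505.3 and 1832 RPKM, ZEB1 (mesenchymal) between 2.51 and 3.34, PTPRC (leukocytes) was at 0 in all 4 libraries, and PECAM1 (endothelium) and KRT5 (basal cells) reached at most 0.0265 and 0.0393 RPKM. By scaled RPKM, VIM and ZEB1 lay lower in both si-circZFR libraries than in both NC libraries. The epithelial genes EPCAM, CDH1 and KRT18, the fibrinogen genes FGA, FGB and FGG and the fibroblast gene COL1A1 lay higher, for example with 4 and 4 reads for EPCAM and 645 and 475 for CDH1 in the NC libraries and 18 and 28 for EPCAM and 1198 and 1254 for CDH1 in the others. Of all genes tested, 27.8% had both si-circZFR libraries above both NC libraries and 28% had both below. The groups overlapped for KRT8, AKR1B10 and AKR1C1. Of these markers EPCAM alone was called (limma FDR = 0.0450). VIM, ZEB1 and KRT18 were not (limma FDR = 0.726, 0.383 and 0.667). With so few NC reads, EPCAM passed the read filter for testing only through the si-circZFR libraries. Its call is therefore no support for a difference. It was also lost with 0.1 in place of 1 added to the scaled RPKM (limma FDR = 0.0509). The part of these marker differences in the results below was not tested.

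Only 1 of the 54 genes was called, SMARCD1, and it was lower. It encodes BAF60a, an accessory subunit that links SWI/SNF complexes to transcription factors. The share of all tested genes called lower was 0.865% and the share called higher was 0.493%, so 1 of 54 lower and 0 of 54 higher are counts near this background. SMARCD1 had 1157 reads in NC 1, 1118 in NC 2, 571 in si-circZFR 1 and 503 in si-circZFR 2. Its scaled RPKM was 27.9 in NC 1, 27.8 in NC 2, 14.1 in si-circZFR 1 and 11.6 in si-circZFR 2. The NC libraries were almost equal, and both si-circZFR libraries lay well below them. The mean was 27.9 ± 0.0333 in NC and 12.8 ± 1.76 in si-circZFR (SD, n = 2 each), 54% lower. In RNA from whole cultures, fewer cells with the transcript and less of it per cell cannot be told apart. The log2FC of SMARCD1 was -1.07 (standard error 0.17, 95% interval -1.48 to -0.66, limma FDR = 0.0472). With limma-voom on the recovered reads, its log2FC was -1.13 (FDR = 0.0227). SMARCD1 was the member called there too, with 0 higher, against 1.78% of all genes called lower and 1.45% called higher by that test. Over all alternatives its log2FC ran from -1.19 to -0.89 and was never reversed, but the FDR lay close to the threshold and ran from 0.0227 to 0.276. It was 0.0505 with scaling by library size only, 0.102 without NC 2, 0.0810 without si-circZFR 1 and 0.276 without si-circZFR 2.

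**Figure D1:**
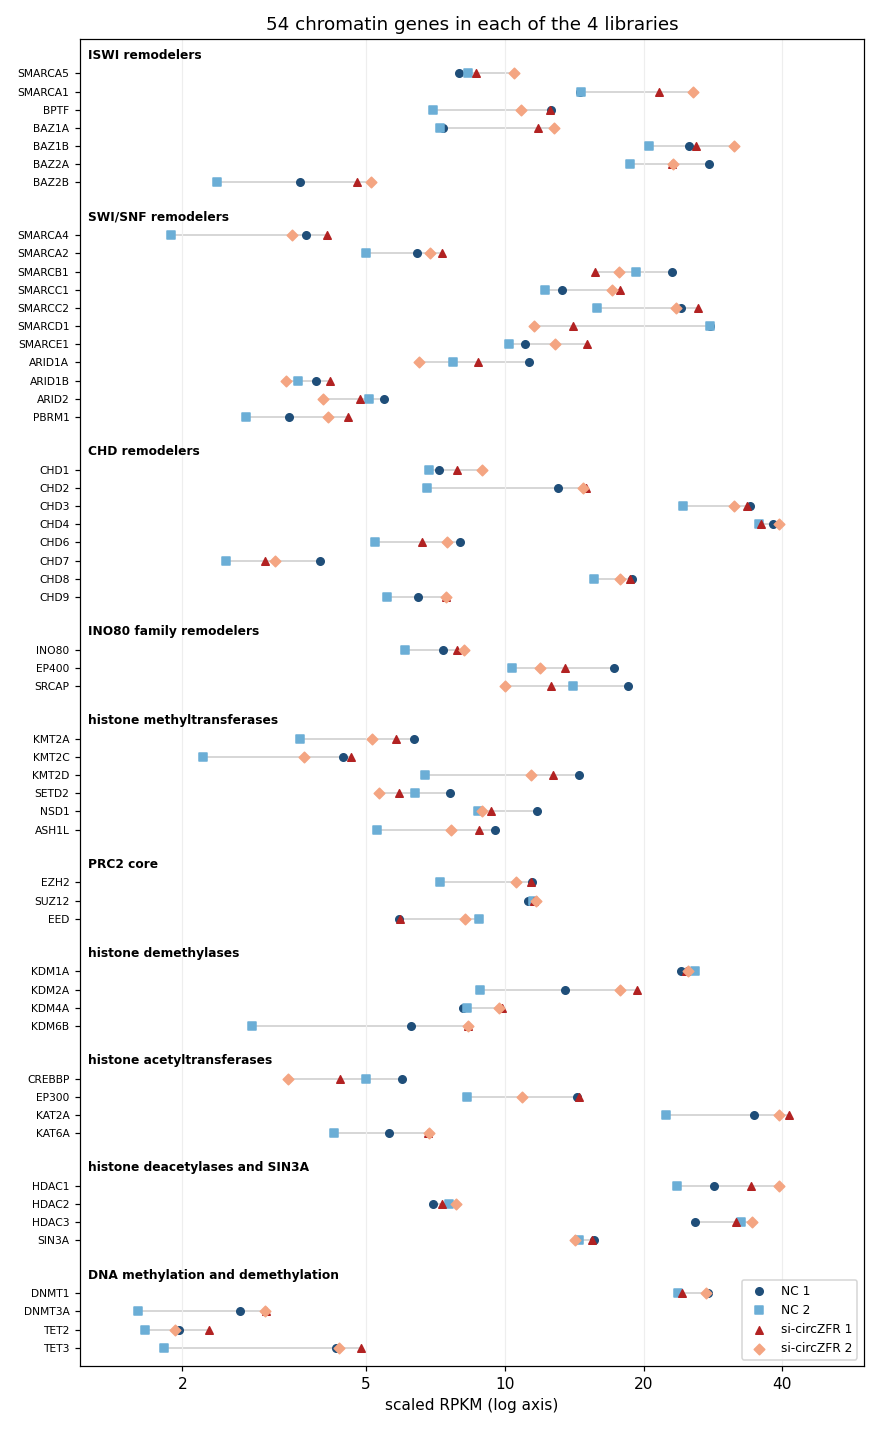
Scaled RPKM (log axis) of the 54 chromatin genes in each library, by role. Circles and squares are NC 1 and NC 2, triangles and diamonds are si-circZFR 1 and si-circZFR 2, and a grey line joins the lowest and highest library of a gene. SMARCD1 is the gene with both NC libraries far to the right of both si-circZFR libraries, at 27.9 and 27.8 against 14.1 and 11.6, and for many genes NC 2 (square) is the leftmost point.

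SMARCD1 has paralogs, SMARCD2 and SMARCD3, of which a SWI/SNF complex holds a single one, and they were looked at after its value was seen. SMARCD2 had a scaled RPKM of 37.2 and 43.6 in the NC libraries and 36.5 and 32.0 in the si-circZFR libraries. SMARCD3 had 12.9 and 12.1 in the NC libraries and 11.6 and 10.0 in the si-circZFR libraries. For both, the si-circZFR libraries were the lower ones, but neither difference passed the test (log2FC -0.23 with a 95% interval of -0.65 to 0.19, and -0.20 with an interval of -0.60 to 0.21). These intervals do not reach the log2FC of SMARCD1, although the difference between the paralogs was not itself tested.

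The 3′UTR of SMARCD1 is shown because it holds the letters TGACTC at 3 places. That of TET3 also holds them at 3 places, and for TET3 both si-circZFR libraries lay above both NC libraries (log2FC 0.54, 0.08 without NC 2). This 6-mer was taken up from an earlier analysis of these same libraries. There, transcripts with longer forms of it in the 3′UTR were reported as lower after circZFR silencing, a result not shown here. The presence of the 6-mer is therefore a description and no independent support. The transcript strand of the canonical transcript was searched (GENCODE 44, GRCh38). All 3 sites of SMARCD1 lie on the plus strand of chromosome 12 in exon 13 of 13, at bases 829, 1027 and 1059 of a 3′UTR of 1707 bases. The sites are given with 11 bases around the 6-mer on each side, written 5′ to 3′ in lower case, with the 6-mer and any base that extends it in capitals.
SMARCD1, chr12:50099818-50099845: gtttggagatgTGACTCAttcattcact
SMARCD1, chr12:50100016-50100043: agttgggtttgTGACTCttccctctccc
SMARCD1, chr12:50100048-50100075: tcacaggattgTGACTCcccagcccctg

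The 6-mer was in the 3′UTR of 17 of the 54 genes, or 31.5%, against 29.8% of the 11395 tested genes with a 3′UTR. The longer forms contain the 6-mer. CTGACTC was in 14.8% against 11.6% and TGACTCA was in 9.26% against 12.2%. The 8-mer CTGACTCA was in 1.85% (HDAC2 alone) against 3.80%. The shares were not far apart, but the chromatin genes have the longer 3′UTRs, with a median of 2062.5 bases against 1356, and length was not adjusted for. Of the 17 genes with the 6-mer, 4 had both si-circZFR libraries below both NC libraries, namely SMARCD1, SRCAP, CREBBP and SETD2, and 6 had both above. These are 23.5% and 35.3%, against 30.6% and 27.6% of all tested genes with the 6-mer. Of the 37 genes without it, 2 were below (SMARCB1 and ARID2) and 16 above, or 5.41% and 43.2%, against 24.7% and 30.2% of all tested genes without it. The median log2FC was 0.18 with the 6-mer and 0.23 without it, against -0.01 and 0.03 for all tested genes with a 3′UTR. The 17 genes with it are longer, with a median of 8433 bases against 6704 for the 37 without it. The sites of the other 3 lower genes are shown together with those of KDM2A, a gene with both si-circZFR libraries above both NC libraries and CTGACTC near the start of its 3′UTR, and the 8-mer site of HDAC2, a gene with overlapping groups and a further site of the plain 6-mer. SRCAP and KDM2A are on the plus strand and CREBBP, SETD2 and HDAC2 on the minus strand, and each site lies in the last exon.
SRCAP, chr16:30739780-30739807: atgaccaggcCTGACTCtgttaaccact
SRCAP, chr16:30740761-30740788: tgtcctcctgtTGACTCtgtgcttacct
CREBBP, chr16:3727397-3727424: gtcattgctggTGACTCAtgcctttttt
CREBBP, chr16:3727159-3727186: atgataggaatTGACTCcggcgtgcaca
SETD2, chr3:47016817-47016844: ctggccagacCTGACTCcactcttaaac
KDM2A, chr11:67255086-67255113: cgatcttcccCTGACTCcccaccgagga
HDAC2, chr6:113937603-113937630: agcgattctcCTGACTCAggcatgagcc

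Apart from SMARCD1, more of the 54 genes were higher than lower in the si-circZFR libraries. The log2FC was above 0 for 41 genes and below 0 for 13, with a median of 0.20, whereas the median was 0.003 over all 14800 genes. Both si-circZFR libraries lay above both NC libraries for 22 genes (40.7%), against 27.8% of all genes. They lay below for 6 genes (11.1%), against 28% of all genes, and the groups overlapped for the other 26. Spearman's rho between length and log2FC was 0.32 across all 14800 genes and -0.06 across the 54 genes. Of all 3933 tested genes of 4000 to 8000 bases, 1505 lay above and 747 below. Of all 826 over 8000 bases, 333 lay above and 99 below. Of the 54 genes, 11 of 19 in the first class lay above and 0 below, and 8 of 26 over 8000 bases above and 4 below. At an unadjusted p under 0.05, 7 of the 54 were higher (SMARCA1, BAZ1A, BAZ2B, SMARCC1, KDM2A, KDM6B and HDAC1), against 10.6% of all genes, and SMARCD1 alone was lower, against 11.9% of all genes. None of the 7 passed the FDR. The plot of differences by role shows these genes beside the rest.

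**Figure D2:**
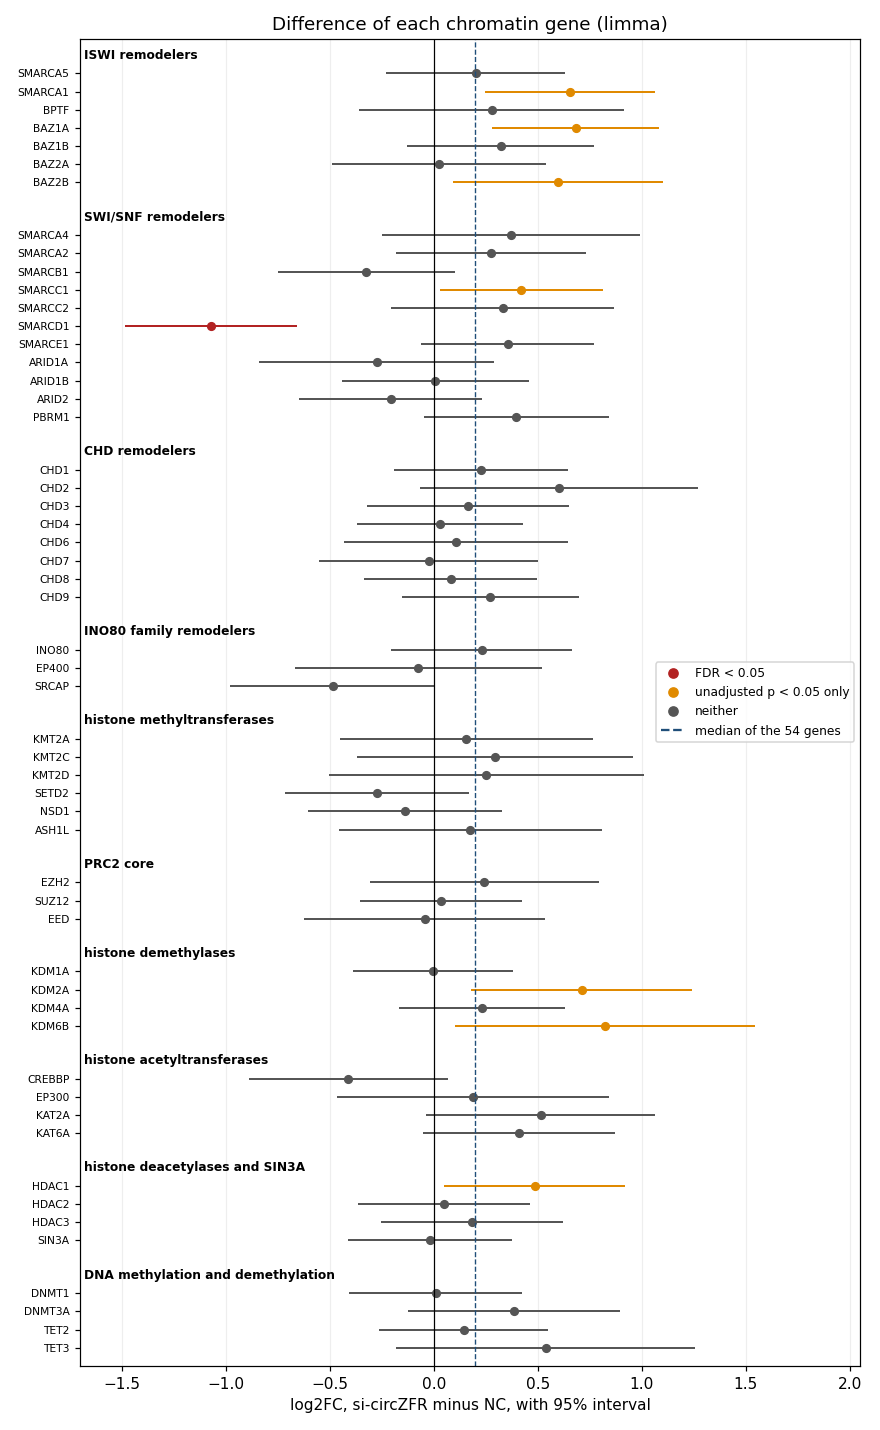
The log2FC of each of the 54 genes (si-circZFR minus NC, points) with its 95% interval from limma (lines), by role. SMARCD1 at -1.07 is the only gene called (red), 7 genes on the higher side had an unadjusted p under 0.05 only (orange), and the dashed line is the median of the 54 genes at 0.20.

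The shift to the higher side depended on NC 2. NC 2 was below NC 1 for 46 of the 54 genes, with a median difference of -0.27 on the log2 scale, while the median over all genes was 0.02. NC 2 was the lowest of the 4 libraries for 37 of the 54 genes (68.5%), against 32.5% of all genes, 47.9% of those of 4000 to 8000 bases and 69.0% of those over 8000 bases. Summed over the 54 genes, CPM (read counts scaled to a common library size) were 4728 in NC 1, 3184 in NC 2, 4857 in si-circZFR 1 and 5103 in si-circZFR 2, so NC 1 was much closer to the si-circZFR libraries than to NC 2. Without NC 2, the median log2FC was 0.04, with 29 genes higher and 25 lower. Without NC 1 it was 0.36, with 44 higher and 10 lower. Scaling by library size only moved the median of all genes to 0.15 and that of the 54 genes to 0.37, which is 0.23 above all genes and compares with 0.19 above them after scaling by trimmed means.

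The difference between the NC libraries ran with transcript length, and the 54 genes are long, with a median length of 7402.5 bases against 2886 for all genes tested. Across the 54 genes, Spearman's rho between length and NC 2 minus NC 1 was -0.53, and across all 14800 genes it was -0.39. Between the si-circZFR libraries, rho was -0.48 across the 54 genes and 0.02 across all genes, with smaller differences. Genes are not independent replicates, and all points of a difference share the same libraries, so these are descriptions. All 26 of the 54 genes over 8000 bases were lower in NC 2 than in NC 1, with a median of -0.47, as were 705 of all 826 tested genes of this length, with a median of -0.24. The largest differences were those of KMT2D at -1.004, KDM6B at -0.93, TET3 at -0.91 and CHD2 at -0.85. After a smooth trend on length was removed from each library, the median log2FC of the 54 genes was 0.10, with 32 higher and 22 lower, and SMARCD1 was still called (log2FC -1.12, FDR = 0.0345). With the length trend removed and NC 2 left out, the median was 0.0029, with 28 higher and 26 lower. The part of length and of NC 2 in each single gene was not tested. A value without NC 2 is given below for each gene whose log2FC it moved by over 1.5 times or reversed.

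**Figure D3:**
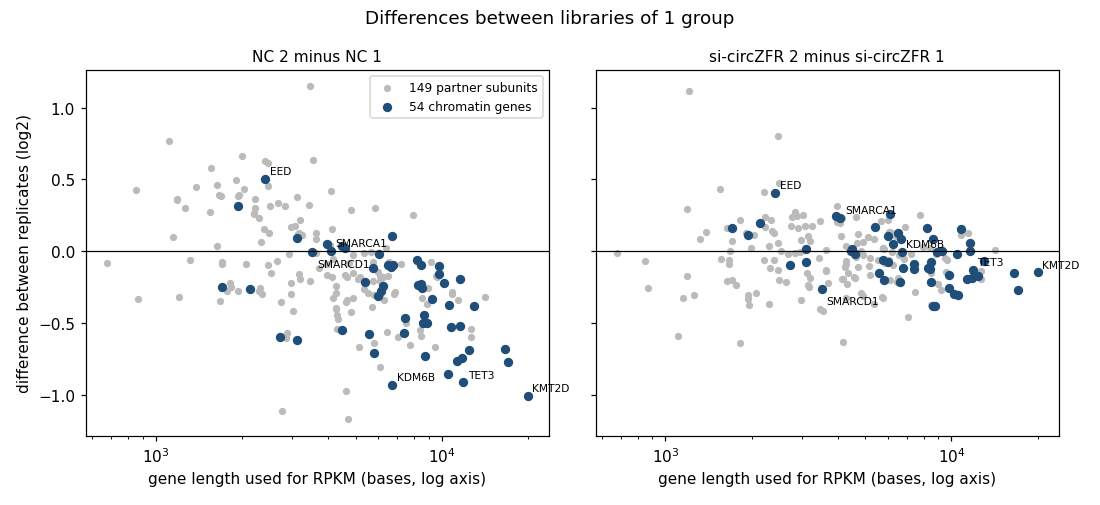
Difference between the libraries of a group (log2 scale) against the gene length used for RPKM (bases, log axis), for NC 2 minus NC 1 on the left and si-circZFR 2 minus si-circZFR 1 on the right. Dark points are the 54 chromatin genes and grey points 149 other subunits of the same complexes. In the left panel longer chromatin genes tend to sit lower, down to -1.004 for KMT2D, though KDM6B at 6704 bases is at -0.93. In the right panel the 54 genes stay between -0.38 and 0.41.

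The ISWI genes were all on the higher side. All 7 had a log2FC above 0, with a median of 0.32. Both si-circZFR libraries lay above both NC libraries for 5 of them, against 27.8% of all genes. Among all tested genes of 4000 to 8000 bases, this was so for 1505 of 3933. ISWI complexes space nucleosomes evenly along DNA, with SMARCA5 (SNF2H) or SMARCA1 (SNF2L) as the ATPase and BAZ or BPTF proteins as partners. BAZ1A, the ACF1 subunit, had a scaled RPKM of 7.33 and 7.24 in the NC libraries and 11.8 and 12.8 in the si-circZFR libraries. SMARCA1 had 14.6 in each NC library and 21.6 and 25.6 in the si-circZFR libraries. For both genes the NC libraries were nearly equal, unlike most of the 54. The log2FC was 0.68 for BAZ1A (limma FDR = 0.0893) and 0.65 for SMARCA1 (limma FDR = 0.0992), and without NC 2 the values were 0.67 and 0.65. Leaving out NC 2 thus moved both values by little, but neither passed. Leaving out NC 1 instead, the values were 0.68 for BAZ1A and 0.64 for SMARCA1. SMARCA5 had 7.98 and 8.31 in the NC libraries and 8.65 and 10.5 in the si-circZFR libraries, a log2FC of 0.20 with a 95% interval of -0.22 to 0.63. BAZ2B had 3.59, 2.38, 4.78 and 5.12, and its log2FC of 0.60 was 0.37 without NC 2. BPTF, the large reader subunit of NURF, went from a log2FC of 0.28 to -0.11 without NC 2, BAZ2A from 0.02 to -0.26 and BAZ1B from 0.32 to 0.18. The other ISWI partners tested did not share the direction: RSF1 had a log2FC of 0.43, POLE3 -0.46 and CHRAC1 -0.56, none of them called, and without NC 2 the values were 0.26, -0.15 and -0.41.

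Among the 11 SWI/SNF genes the differences ran both ways. Besides SMARCD1, the log2FC was below 0 for SMARCB1, ARID1A and ARID2 and above 0 for 7 genes, and the median of 0.27 was 0.01 without NC 2, with 6 higher and 5 lower. The ATPase gene SMARCA4 (BRG1) was low, with a scaled RPKM of 3.70 and 1.89 in the NC libraries and 4.11 and 3.45 in the si-circZFR libraries. NC 1 lay between the si-circZFR libraries, and the log2FC of 0.37 was 0.01 without NC 2. The other ATPase gene, SMARCA2 (BRM), had 6.44 and 5.01 in the NC libraries and 7.30 and 6.88 in the si-circZFR libraries, a log2FC of 0.27 with a 95% interval of -0.18 to 0.73 that was 0.11 without NC 2. SMARCC1, a core scaffold subunit, had 13.3 and 12.2 in the NC libraries and 17.8 and 17.1 in the si-circZFR libraries. Its groups did not overlap, and its log2FC of 0.42 (limma FDR = 0.194) was 0.36 without NC 2. SMARCB1, a core subunit lost in rhabdoid tumours, had 23.0 and 19.3 in the NC libraries and 15.7 and 17.7 in the si-circZFR libraries. Its groups were also apart, and its log2FC of -0.32 had a 95% interval of -0.74 to 0.09. ARID2, which marks the PBAF form of the complex, had 5.47 and 5.07 against 4.85 and 4.04, while PBRM1, another PBAF subunit, had 3.41 and 2.75 against 4.57 and 4.15. These PBAF genes thus lay on opposite sides, with log2FC values of -0.21 and 0.40, and neither passed the test. For ARID1A, ARID1B, SMARCC2 and SMARCA4 the groups overlapped, and without NC 2 the log2FC went from -0.27 to -0.53 for ARID1A, from 0.01 to -0.05 for ARID1B and from 0.33 to 0.04 for SMARCC2.

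The CHD remodelers, ATPases with chromodomains, were all lowest in NC 2. The 8 genes had a median log2FC of 0.13, which became -0.04 without NC 2. CHD4, the ATPase of the NuRD complex and the gene with the highest mean level of the 54, had a scaled RPKM of 38.2 and 35.7 in the NC libraries and 36.0 and 39.4 in the si-circZFR libraries. The groups overlapped, and the log2FC of 0.03 had a 95% interval of -0.36 to 0.42 and was -0.02 without NC 2. CHD2 had the smallest p of the 8, with 13.1 in NC 1, 6.79 in NC 2 and 15.0 and 14.8 in the si-circZFR libraries. NC 2 alone was far from the rest, and the log2FC of 0.60 (limma FDR = 0.259) was 0.17 without NC 2. CHD1 and CHD9 were above both NC libraries in both si-circZFR libraries, with log2FC values of 0.23 and 0.27 that were 0.19 and 0.17 without NC 2. The groups overlapped for CHD3, CHD6, CHD7 and CHD8, whose log2FC without NC 2 went from 0.17 to -0.07, from 0.10 to -0.17, from -0.02 to -0.29 and from 0.08 to -0.05.

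Of the INO80 family genes, which encode ATPases that exchange histone variants such as H2A.Z, SRCAP was the second lowest of the 54 by log2FC. It had a scaled RPKM of 18.5 and 14.04 in the NC libraries and 12.6 and 10.0 in the si-circZFR libraries. The groups did not overlap, and the log2FC was -0.49 (95% interval -0.98 to 0.0012, limma FDR = 0.224). It was -0.68 without NC 2 and -0.63 with the length trend removed, and limma-voom gave -0.52 (FDR = 0.176). INO80 had 7.35 and 6.09 in the NC libraries and 7.87 and 8.18 in the si-circZFR libraries, a log2FC of 0.23 that was 0.11 without NC 2. EP400 had 17.3 and 10.4 against 13.5 and 11.9, so the si-circZFR libraries lay between the NC libraries, and its log2FC of -0.08 was -0.43 without NC 2 and 0.26 without NC 1.

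The histone methyltransferases hold the longest transcripts of the set. No gene among them was above both NC libraries in both si-circZFR libraries, against 27.8% of all genes. With 6 genes, this count cannot be set apart from that share. KMT2A, KMT2C and KMT2D methylate lysine 4 of histone H3, SETD2 and ASH1L methylate lysine 36, and so does NSD1. The median log2FC of the 6 genes was 0.17 and became -0.23 without NC 2, where all 6 were lower. KMT2D had a scaled RPKM of 14.5 in NC 1, 6.73 in NC 2, 12.7 in si-circZFR 1 and 11.4 in si-circZFR 2. Both si-circZFR libraries lay between the NC libraries, and the log2FC of 0.25 was -0.26 without NC 2 and 0.75 without NC 1. KMT2A had 6.36, 3.60, 5.82 and 5.16 in the same order and the same arrangement, with a log2FC of 0.16 that was -0.19 without NC 2. KMT2C, whose values are uncertain because the genome holds near-identical copies of part of the gene, had 4.47, 2.22, 4.64 and 3.68, a log2FC of 0.29 that was -0.10 without NC 2. SETD2 had the smallest p of the 6, with 7.63 and 6.38 in the NC libraries and 5.88 and 5.33 in the si-circZFR libraries. Its groups did not overlap, and its log2FC of -0.27 (limma FDR = 0.415) was -0.39 without NC 2 and -0.40 with the length trend removed. NSD1 and ASH1L overlapped between the groups, with log2FC values of -0.14 and 0.18 that were -0.34 and -0.20 without NC 2.

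The PRC2 core was close to level. This complex methylates lysine 27 of histone H3 to silence genes, with EZH2 as the catalytic subunit. EZH2 had a scaled RPKM of 11.5 and 7.25 in the NC libraries and 11.4 and 10.6 in the si-circZFR libraries, a log2FC of 0.24 that was -0.06 without NC 2. SUZ12 had 11.2 and 11.5 in the NC libraries and 11.6 and 11.7 in the si-circZFR libraries, and its log2FC of 0.03 had a 95% interval of -0.35 to 0.42. EED had 5.91 and 8.79 against 5.92 and 8.18, so the groups overlapped, and its log2FC of -0.04 was 0.20 without NC 2. It is short for this set at 2417 bases, and it was the gene with the largest difference in favour of NC 2 over NC 1, at 0.50. SUZ12 also has a near-identical pseudogene, and the sharing of reads between them was not tested.

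Histone demethylases gave the highest median of the role groups, 0.47, from 4 genes that differed widely. KDM6B (JMJD3), which removes methyl groups from lysine 27 of histone H3, had the highest log2FC of the 54. Its scaled RPKM was 6.27 in NC 1, 2.83 in NC 2 and 8.32 in each si-circZFR library. The log2FC of 0.82 (standard error 0.30, limma FDR = 0.179) was 0.35 without NC 2 and 1.28 without NC 1. KDM2A, which acts on lysine 36 and binds unmethylated CpG islands, had 13.5 and 8.84 in the NC libraries and 19.4 and 17.8 in the si-circZFR libraries. The si-circZFR libraries lay clearly above NC 1 as well, and the log2FC of 0.71 (limma FDR = 0.135) was 0.42 without NC 2. KDM1A (LSD1), which acts on lysine 4, had 24.1, 25.8, 24.8 and 25.0, and its log2FC of -0.004 had a 95% interval of -0.38 to 0.38 and was 0.04 without NC 2. KDM4A had 8.11 and 8.28 in the NC libraries and 9.87 and 9.74 in the si-circZFR libraries, a small but separated difference with a log2FC of 0.23 (limma FDR = 0.441).

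The histone acetyltransferases were split. CREBBP (CBP) had a scaled RPKM of 5.98 and 5.01 in the NC libraries and 4.40 and 3.39 in the si-circZFR libraries. Its groups did not overlap, and its log2FC of -0.41 (limma FDR = 0.272) was -0.53 without NC 2 and -0.55 with the length trend removed. Its paralog EP300 (p300) had 14.3 and 8.27 in the NC libraries and 14.5 and 10.9 in the si-circZFR libraries. The groups overlapped, and the log2FC of 0.19 was -0.18 without NC 2. KAT2A (GCN5), the acetyltransferase of the SAGA complex, had 34.8 and 22.4 against 41.3 and 39.3 and the smallest p of the 4 (log2FC 0.51, limma FDR = 0.245), with a log2FC of 0.20 without NC 2. KAT6A (MOZ) had 5.61 and 4.26 against 6.83 and 6.84, and its log2FC of 0.41 was 0.24 without NC 2.

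Among the class I deacetylases and their scaffold SIN3A, HDAC1 had the highest log2FC. HDAC1 had a scaled RPKM of 28.5 and 23.6 in the NC libraries and 34.2 and 39.4 in the si-circZFR libraries. The groups did not overlap, and the log2FC of 0.48 (limma FDR = 0.184) was 0.35 without NC 2 and 0.52 with the length trend removed. HDAC2, its close paralog in the NuRD and SIN3 complexes, had 6.98 and 7.58 against 7.31 and 7.82, a log2FC of 0.05 with a 95% interval of -0.36 to 0.46 that was 0.10 without NC 2. HDAC3 had 25.9, 32.5, 31.8 and 34.4, and SIN3A had 15.6, 14.5, 15.5 and 14.2, and the groups of both overlapped, with log2FC values of 0.18 and -0.02 that were 0.33 and -0.07 without NC 2.

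Of the DNA methylation genes, none had an unadjusted p under 0.05. DNMT1, the maintenance methyltransferase, had a scaled RPKM of 27.7 and 23.7 in the NC libraries and 24.3 and 27.4 in the si-circZFR libraries, a log2FC of 0.01 with a 95% interval of -0.40 to 0.42 that was -0.11 without NC 2. DNMT3A, which methylates DNA de novo, had 2.67 and 1.60 against 3.04 and 3.03 (log2FC 0.38, limma FDR = 0.328), and the value was 0.13 without NC 2. TET3, which oxidises methylcytosine, had 4.30 in NC 1, 1.82 in NC 2, 4.87 in si-circZFR 1 and 4.38 in si-circZFR 2. NC 1 was close to the si-circZFR libraries, and the log2FC of 0.54 was 0.08 without NC 2 and 0.99 without NC 1. TET2, the gene with the lowest mean level of the 54, had 1.96, 1.66, 2.28 and 1.93, and its groups overlapped, with a log2FC of 0.14 that was 0.06 without NC 2.

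**Figure D4:**
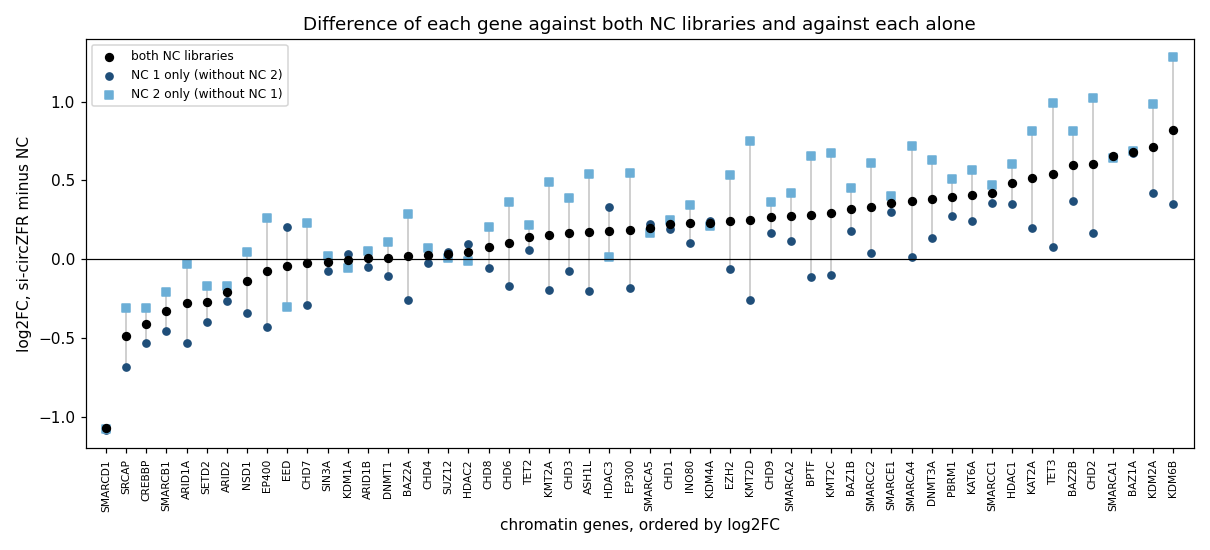
The log2FC of each of the 54 genes, ordered from lowest to highest, against both NC libraries (black), against NC 1 alone (dark circles) and against NC 2 alone (light squares). SMARCD1, SMARCA1 and BAZ1A have all 3 points together, whereas KMT2D runs from -0.26 to 0.75 and TET3 from 0.08 to 0.99.

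To see whether the wider complexes moved, 151 other subunits and enzymes of the same families were listed, of which 149 were tested (CECR2 and DPF3 had too few reads). None was called by limma or by limma-voom, at an unadjusted p under 0.05 by limma 13 were higher and 9 lower, against 10.6% and 11.9% of all genes, and their median log2FC was 0.01. They are shorter, with a median length of 3714 bases. Both si-circZFR libraries lay above both NC libraries for 37 and below for 37, against 27.8% and 28% of all genes. The smallest p belonged to MTA1, a scaffold subunit of the CHD4 complex NuRD, with a scaled RPKM of 20.1 and 12.96 in the NC libraries and 30.3 and 30.1 in the si-circZFR libraries (log2FC 0.86, limma FDR = 0.0997). Next came GLTSCR1, now named BICRA and part of a SWI/SNF form without ARID subunits, with 2.23 and 1.08 against 3.50 and 3.56 (log2FC 0.80, limma FDR = 0.122). BCL7B, a small SWI/SNF subunit, had 21.6 and 20.5 against 30.2 and 31.8 (log2FC 0.54, limma FDR = 0.123). SAP130, of the SIN3 complex, had 15.0 and 11.8 against 9.002 and 5.48 (log2FC -0.83, limma FDR = 0.126). All 4 had groups that did not overlap, but they were chosen by their small p, so this is no further support. Without NC 2 their log2FC values were 0.56, 0.49, 0.50 and -1.002. Among the 15 further SWI/SNF subunits, 3 were higher and 1 lower at an unadjusted p under 0.05, and their median log2FC was 0.01.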

How the data were processed

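For each of 4 libraries (2 NC, 2 si-circZFR), the authors deposited 1 RPKM value per gene. Per the paper, libraries were made with the Ion Total RNA-Seq kit and aligned to hg38 (the labels give GRCh37) and corrected for batch effects, of which the whole reads behind the values show no sign. The aligner, annotation and counting are not given in the sources used here. Reads were recovered as the whole numbers behind the RPKM steps (tolerance 0.02 reads) for 24282 of 24289 genes above 0. Of small RNA genes of known length, 94.4% to 96.2% came out whole. The test took in genes with over 1 CPM in 2 or more libraries. A filter on RPKM was kept as an alternative, because it drops long genes with many reads and keeps short genes with few. RPKM values were scaled by a trimmed mean of the log ratios to the geometric mean library (30% of the ratios and 5% of the levels left out at each end). Then limma 3.58.1 with a trended prior variance (R 4.3.3) was fitted to log2(scaled RPKM + 1), two-sided, after checks on simulated data. The simulated libraries held no length trend and no library that stood apart as NC 2 does, so the checks do not cover these features. An exact permutation test of 2 against 2 libraries cannot go below p = 0.333 and was not used. Alternatives covered the scaling, filter, pseudocount, test, replicate number, length, genes kept and libraries. The 54 genes, the partner list and the 6-mer were chosen with earlier results of these data known. Libraries' values are given for each gene called and, in each role group, for the gene with the smallest p and the catalytic genes that name the group, and for the 4 partner genes with the smallest p. Other steps and the plots ran in Python 3.11.15 with scipy 1.17.1, pandas 2.3.3 and matplotlib 3.10.9.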

Additional observations from a re-analysis of the deposited data

How the results depend on the processing

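SMARCD1 was lower under all alternatives tried, and its call was lost under 9 of the 15. With 2 libraries per group and an FDR near the threshold, the count of calls moved with many of the choices. From 201 over all genes it moved less with some. It was 200 with scaling by median of ratios and 213 with the length trend removed. It was 245 with pseudogenes, ribosomal protein and mitochondrial genes left out, and 299 with scaling by library size only. The count over all genes was 8 with the RPKM filter, 0 without a filter (FDR by limma), 58 with a pseudocount of 0.1, 477 by limma-voom, 39 without the trend in the prior variance and 0 to 2145 on leaving out a library, the highest without NC 1. Of the 54 genes, 0 were called with scaling by library size only, with the RPKM filter, without a filter, with a pseudocount of 0.1 and without the trend, at 13, 7, 6, 7 and 7 higher genes with an unadjusted p under 0.05, and 0 to 9 on leaving out a library. At an unadjusted p under 0.05, 11 were higher and 3 lower by limma-voom, 4 were lower with the length trend removed, 2 were lower with pseudogenes, ribosomal protein and mitochondrial genes left out, and leaving out a library gave 1 to 24 higher and 1 to 5 lower. The median log2FC of the 54 genes ran from 0.037 to 0.36 on leaving out a library, and the partner genes called from 0 to 18, the highest of each without NC 1. The lone library was then taken to vary like the other group. With the length trend removed and NC 2 left out, an alternative chosen after the data were seen, 25 genes and 0 of the 54 were called, 3 were higher and 6 lower at an unadjusted p under 0.05, and the median was 0.0029. The cause of these moves was not tested. For the alternatives, the share of all genes with an unadjusted p under 0.05 was not worked out. Counts of the 54 genes at that threshold therefore have no background there and are no result about these genes.

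For libraries with the same replicate number, the correlation of the deviations from the group means was 0.08. With 2 libraries per group, this single value over all genes cannot settle whether replicate numbers paired the libraries. The fit with this replicate block called 420 genes, 1 of the 54, and 9 higher and 2 lower of the 54 at an unadjusted p under 0.05.

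The sign of the log2FC changed for uncalled genes only. This was so for BAZ2A -0.055, ARID1B -0.13, CHD4 -0.080, CHD6 -0.040, CHD8 -0.048, KMT2A -0.0033, SUZ12 -0.046, HDAC2 -0.063 and DNMT1 -0.087 with the length trend removed, for CHD7 0.12, EP400 0.10, NSD1 0.035, EED 0.13, KDM1A 0.18 and SIN3A 0.16 with scaling by library size only, for BAZ2A -0.013, ARID1B -0.023, CHD4 -0.0060, SUZ12 -0.0018 and DNMT1 -0.027 with pseudogenes, ribosomal protein and mitochondrial genes left out, and for KDM1A 0.013 with the RPKM filter. With the length trend removed and NC 2 left out, the values that changed sign were BPTF -0.11, BAZ2A -0.30, SMARCA4 -0.021, ARID1B -0.057, CHD3 -0.10, CHD4 -0.055, CHD6 -0.17, CHD8 -0.069, KMT2A -0.17, KMT2C -0.076, KMT2D -0.23, ASH1L -0.20, EZH2 -0.075, EED 0.20, KDM1A 0.011, EP300 -0.19 and DNMT1 -0.14. On leaving out each library in turn, the log2FC that changed sign ran over BPTF -0.11 to 0.65, BAZ2A -0.26 to 0.29, ARID1B -0.11 to 0.14, CHD3 -0.074 to 0.39, CHD4 -0.027 to 0.10, CHD6 -0.17 to 0.36, CHD7 -0.29 to 0.23, CHD8 -0.055 to 0.20, EP400 -0.43 to 0.26, KMT2A -0.19 to 0.49, KMT2C -0.10 to 0.67, KMT2D -0.26 to 0.75, NSD1 -0.34 to 0.046, ASH1L -0.20 to 0.54, EZH2 -0.061 to 0.53, EED -0.30 to 0.20, KDM1A -0.058 to 0.037, EP300 -0.18 to 0.55, HDAC2 -0.0091 to 0.10, SIN3A -0.074 to 0.046 and DNMT1 -0.11 to 0.11.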
